A study of Homo sapiens with 13 samples.

Results

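The genes described here are 9 members of the SOX family in the human glioblastoma line T98G, an established line that grows in serum: SOX2, SOX4, SOX5, SOX6, SOX8, SOX9, SOX10, SOX11 and SOX21. The measurement was chromatin accessibility by ATAC-seq, in which the Tn5 transposase cuts open DNA and the cut fragments are sequenced. Every peak overlapping 1 of these genes, or lying within 25 kb of its ends in the GENCODE annotation of hg19 (GRCh37), was taken as a member, which gave 71 of the 129347 peaks in the table. Of these, 7 overlapped an annotated transcription start site (TSS) of a SOX gene and are called TSS peaks. The other 64 are called flanking peaks, although many lie inside the genes, and 5 of them cover the TSS of a different gene. For each gene the peaks were taken by position alone, without use of their signal. The genes themselves were chosen with earlier results of these data known.

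The study compared 2 stages of the cell cycle to ask how far regulatory regions stay open in mitosis. G1 cells (3 libraries) had been kept without serum for 72 h. M-phase cells (3 libraries) were starved of serum for 48 h, released for 36 h with nocodazole, a drug that blocks the spindle, and collected by shaking off the rounded cells. The G1 libraries were sequenced on a HiSeq and each M-phase replicate on both a HiSeq and a NextSeq, so serum release, drug, sequencer and cell cycle stage cannot be told apart. The labels do not say whether replicates were separate cultures, and p-values therefore measure the spread between these libraries, which may be technical. The chromatin fraction and input libraries, 4 samples of unsynchronized cells, were not analysed here.

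SOX proteins bind DNA through an HMG box and bend it, and most act with partner factors on enhancers. SoxB genes (SOX2, a pluripotency and neural stem cell factor, and SOX21, often its antagonist) and SoxC genes (SOX4 and SOX11, factors of progenitors and early neurons) are small and lack introns. SoxD genes (SOX5 and SOX6) are very long and encode proteins without a classical activation domain that assist or oppose other SOX factors. SoxE genes (SOX8, SOX9 and SOX10) direct neural crest, glial and cartilage development, and SOX2, SOX4 and SOX9 are studied in glioblastoma for their part in stem-like growth.

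Values are read counts per peak that the authors scaled to a common library size, here called scaled counts. Summed over all peaks they ranged from 4191845 to 5092426 in the G1 libraries and from 5475345 to 6000423 in the M-phase libraries. The SOX loci held 0.0779% to 0.0896% of it in each library. Changes are differences of log2(scaled count + 8), M-phase minus G1, with their standard error (SE), and were tested with limma over the 73121 peaks left after removal of low counts. An adjusted p below 0.05 was taken as a rise or fall. On this scale 14.3% of all tested peaks rose and 13.1% fell, and the median change was 0.02. With the totals in peaks made equal the median became -0.23, with 6342 rises and 18092 falls in place of 10439 and 9548, so directions are relative to the scaling the authors chose. Of the glial and mesenchymal markers reported here, VIM, CD44, FN1 and SLC1A3 had an open TSS, and NES, GFAP and S100B had no TSS peak. No TSS peak was present at PTPRC, CD3E, PECAM1, CDH5, CDH1 or ALB, whereas the epithelial marker EPCAM had 1 with a mean of 99.2.

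The TSS peaks of SOX4, SOX9 and SOX11 rose in M-phase, and 6 peaks within introns of SOX5 and SOX6 fell. Of the 6 TSS peaks that could be tested, 3 rose and none fell, with a median change of 0.48, where 43.2% of all 15500 tested TSS peaks rose, 5.94% fell and the median was 0.39. The rise in 3 of 6 is thus close to the background share. By limma 0 of the 6 fell at an unadjusted p under 0.05 as well, and 0 fell by edgeR or by DESeq2 on the recovered reads, while a TMM scaling gave 1 fall, equal totals 1 and a loess fit, which removes any trend of change with peak strength, 3. Of the 36 flanking peaks tested, 4 rose and 6 fell, and the median change was -0.04. All 6 falls were among the 31 tested peaks at no TSS (19.4%), where rises were 6.45%. Over 57621 peaks without a TSS the background was 15.0% falls and 6.51% rises, so both shares were near it. A split by gene, which was not planned, put 6 falls in the 12 tested peaks of the SoxD introns. The 3 of these in SOX5 passed the filter on low counts only through their G1 libraries. They were not tested where at least 10 was required in every library, which left 3 falls. With edgeR, DESeq2 or the loess fit 4 falls remained. The share over introns of other genes was not computed. The 17 tested peaks at no TSS around the other 7 genes had 2 rises and no fall by limma, also at an unadjusted p under 0.05. Since each library pools many cells, a wider opening in each cell and an opening in more cells cannot be told apart.

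**Figure D1:**
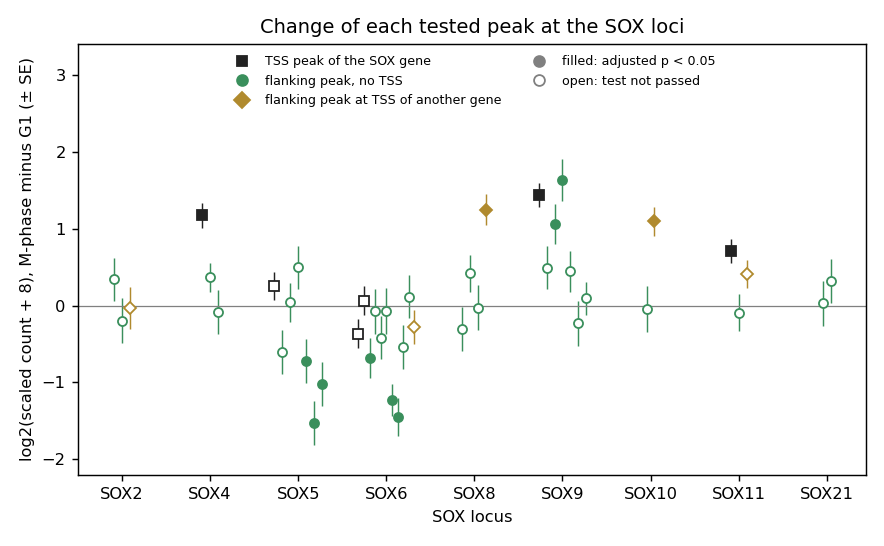
Change of log2(scaled count + 8) from G1 to M-phase (vertical axis, with SE) for each of the 42 tested peaks, grouped by SOX locus. Filled symbols passed the test: TSS peaks of SOX4, SOX9 and SOX11 lie above 0 (SOX11 lies below 0 with the loess fit), the 6 filled points below 0 are intronic peaks of SOX5 and SOX6.

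SOX9, the SoxE gene that drives cartilage and glial fate, had the largest rise of the TSS peaks. Its TSS peak, chr17:70116249-70118375, spans the first exon and also the start of the antisense gene SOX9-AS1. It held 313.2, 257.8 and 277 scaled counts in G1 and 738.6, 847.6 and 745.8 in M-phase. All M-phase libraries were well above all G1 libraries. The mean went from 283 ± 28.1 (SD, n = 3) to 777 ± 61.0, which is 2.75-fold, with a log2 change of 1.44 ± 0.16 (SE) and a limma adjusted p of 9.57e-12. This change was larger than that of 97.2% of all tested TSS peaks.

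2 further peaks inside SOX9 rose with the TSS peak, and both overlap coding sequence. The peak over exon 2, chr17:70118899-70119175, went from 27.8, 19.5 and 23 in G1 to 44.5, 62.6 and 66.9 in M-phase. The peak within the last exon, exon 3, at chr17:70120278-70120530, went from 17.9, 10.9 and 12 to 51.5, 62.2 and 61.6. Neither pair of groups overlapped, which was a condition for naming these peaks. The log2 changes were 1.06 ± 0.26 (limma adjusted p = 0.000756) and 1.63 ± 0.27 (adjusted p = 8.19e-07), the latter a 4.30-fold difference of means. Per length the exon 3 peak had 53.8 scaled counts per kb in G1, below the 133 of the TSS peak, and 231 per kb in M-phase, against 365. The region over exon 2 is shown because it lies in coding sequence and still gained signal, with the 215 bases of exon 2 in capitals and the following intron in lower case, on the plus strand of GRCh37.
SOX9 exon 2 peak: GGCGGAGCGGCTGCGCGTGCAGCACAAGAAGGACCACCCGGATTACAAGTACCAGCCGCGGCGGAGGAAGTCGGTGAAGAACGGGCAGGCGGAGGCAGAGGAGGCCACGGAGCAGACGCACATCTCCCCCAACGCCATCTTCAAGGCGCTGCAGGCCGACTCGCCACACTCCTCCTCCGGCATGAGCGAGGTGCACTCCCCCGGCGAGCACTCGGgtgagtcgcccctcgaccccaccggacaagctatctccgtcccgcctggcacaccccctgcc
The window has a GC content of 68.6% and an observed-to-expected CpG ratio of 0.84, compared with a median ratio of 0.18 over all peaks without a TSS.

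The 4 other peaks around SOX9 did not pass the test. The peak 5.95 kb past the gene start had a change of 0.44 ± 0.27 (limma adjusted p = 0.227), and the strongest flanking peak, 30.7 kb away at chr17:70147368-70148390, held 97.4, 85.9 and 137 in G1 and 105 to 128 in M-phase. Its change was 0.09 ± 0.21 (adjusted p = 0.799), and the groups overlapped. A peak 14.1 kb past the start gave -0.23, and a weak peak 23.7 kb upstream had 4 to 8.6 scaled counts in G1 and 10.7 to 14.4 in M-phase without passing the test (adjusted p = 0.193).

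SOX8 and SOX10, the other SoxE genes, had no TSS peak in either phase. SOX10, the master gene of oligodendrocytes and Schwann cells, had 3 peaks at no TSS with means of 6.62 to 12.5, and SOX8 had 8 with means of 1.10 to 58.8. None of those passed the test. The rises at these loci were at start sites of neighbouring genes. At the SOX8 locus it was LMF1, a gene for lipase maturation, with 104.4, 107.8 and 73 in G1 and 236.5, 217.1 and 248.3 in M-phase (1.25 ± 0.20, limma adjusted p = 3.13e-07). Near SOX10 it was the shared start of C22orf23 and POLR2F, the latter a subunit of the RNA polymerases, with 113.3, 128.9 and 113 against 261.2, 286.4 and 240.1 (1.10 ± 0.19, adjusted p = 2.28e-06). In both cases the phases did not overlap.

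The SoxC genes SOX4 and SOX11 had broad, strong TSS peaks in both phases. The SOX4 peak, chr6:21593674-21597155, covers the start and coding sequence of this 1-exon gene, as well as the start of an unnamed neighbouring transcript. It held 277.4, 246.9 and 337 scaled counts in G1 and 585, 733.4 and 647.7 in M-phase, with no overlap. The mean rose 2.28-fold, from 287 ± 45.8 to 655 ± 74.5 (SD, n = 3), with a log2 change of 1.17 ± 0.17 and a limma adjusted p of 1.44e-08, above 91.6% of tested TSS peaks. The strongest flanking peak of SOX4, 5.31 kb upstream, had 127.3, 139.8 and 166 in G1 and 158.2, 201.5 and 205.9 in M-phase. The groups overlapped and the change of 0.37 ± 0.19 did not pass (adjusted p = 0.160), but it did without G1 replicate 3, at 0.47.

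SOX11 had the highest TSS count of the 9 genes, in a peak at chr2:5831223-5834221 that also covers the start of LINC01248. It held 459.3, 468 and 547 in G1 and 808.7, 864 and 755.9 in M-phase. The groups were separate, the ratio of means was 1.65, and the log2 change was 0.71 ± 0.15 (limma adjusted p = 0.000145), higher than in 69.8% of tested TSS peaks, but with a loess fit along abundance the change turned to -0.25 (adjusted p = 0.0474). A second peak in the gene, at the start of an unnamed transcript 4.28 kb downstream, had 199.8, 196.1 and 282 in G1 and 287.1, 291.7 and 318.5 in M-phase. Its groups did not overlap, though the change of 0.41 ± 0.18 missed the threshold (adjusted p = 0.0791), was 0.58 and passed without G1 replicate 3, and turned to -0.19 with the loess fit. The peak 13.8 kb past the SOX11 start had 46 to 55.5 in G1 and 41.4 to 54.8 in M-phase (-0.09 ± 0.24, adjusted p = 0.830).

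**Figure D2:**
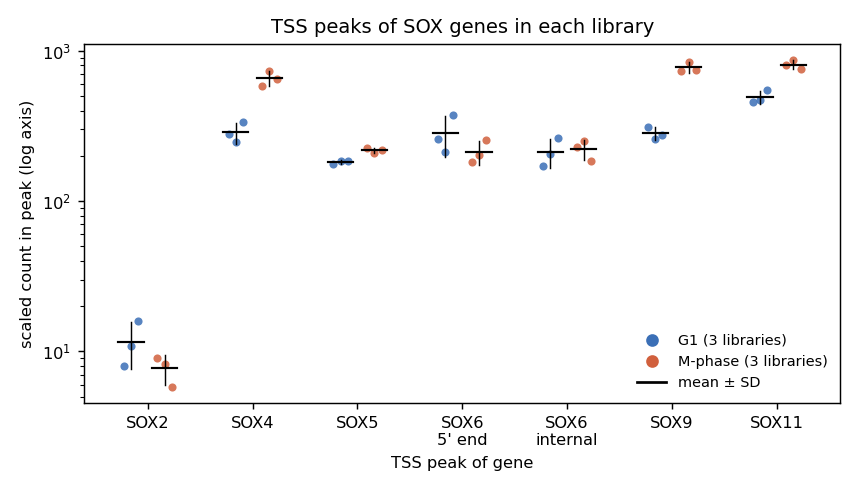
Scaled counts (log axis) in the 7 TSS peaks, with 1 point per library, 3 libraries in G1 (blue) and 3 in M-phase (orange), and lines for mean ± SD. The M-phase points of SOX4, SOX9 and SOX11 are all above the G1 points, those of both SOX6 peaks overlap with G1, and SOX2 is near 10 in both phases.

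The 150 bases upstream of the gene start are given for SOX4, whose TSS peak rose, and for SOX2, whose start had few counts. CpG dinucleotides are in capitals, the sequences are on the plus strand of GRCh37, which is the strand of both genes, and only the CG dinucleotide was searched.
SOX4, chr6:21593832-21593981: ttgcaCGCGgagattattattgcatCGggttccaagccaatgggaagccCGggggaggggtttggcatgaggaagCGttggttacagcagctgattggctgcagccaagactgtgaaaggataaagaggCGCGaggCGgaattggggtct
SOX2, chr3:181429563-181429712: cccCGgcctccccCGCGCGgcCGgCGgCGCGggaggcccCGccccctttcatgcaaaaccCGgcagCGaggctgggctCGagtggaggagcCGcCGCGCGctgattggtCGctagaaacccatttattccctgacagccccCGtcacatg
The window holds 8 CpGs at SOX4 and 18 at SOX2. The median over 20176 protein-coding genes of the annotation was 9 (quartiles 3 and 16). Of these 2 genes, the one with the denser CpG window was thus the one with the less accessible TSS peak (42.2 scaled counts per kb at SOX2, 135 at SOX4). A separate weak peak lies inside the SOX2 window, with a mean of 6.40 scaled counts over 90 bases (71.1 per kb). Each of the 3 TSS peaks that rose was GC-rich over its whole width, with 61.8% GC at SOX4, 63.3% at SOX9 and 68.7% at SOX11, as were the SOX5 TSS peak, which did not pass the test (62.9%), and TSS peaks in general (median 62.5%).

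SOX2 and SOX21, the SoxB genes, had few or no scaled counts in peaks at their starts. Short weak peaks lay 0.10 kb upstream of SOX2 (mean 6.40) and 0.55 kb upstream of SOX21 (mean 12.2). Per length these had 71.1 and 73.2 scaled counts per kb, against 81.2 in the internal TSS peak of SOX6. The SOX2 TSS peak (chr3:181429704-181429932) had 8, 10.9 and 16 scaled counts in G1 and 9.1, 8.2 and 5.8 in M-phase, fell below the filter and was not tested. SOX2 lies in an intron of the long noncoding gene SOX2-OT. The peak of the locus with the highest mean count was 11.2 kb upstream of SOX2 at an unnamed transcript. It had 46.7, 25.8 and 30 in G1 and 42.8, 46.1 and 15.9 in M-phase (-0.03 ± 0.28, limma adjusted p = 0.950). The groups overlapped, and the sign of this value changes with several settings. SOX21 had no TSS peak and 3 weak peaks. The strongest, inside its single exon, averaged 19.7 over all libraries (0.31 ± 0.28, adjusted p = 0.458). No peak of either locus rose or fell.

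At the SoxD genes SOX5 and SOX6 the starts were open in both phases, and the falls were deep inside the introns. The SOX5 TSS peak, chr12:24714525-24716317, had 176, 185.9 and 185 in G1 and 225.8, 209.3 and 219.9 in M-phase. The groups did not overlap, but the change was small, 0.25 ± 0.18 (limma adjusted p = 0.342), and it was -0.24 with the loess fit and -0.09 with equal totals.

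3 intronic peaks of SOX5 fell. At chr12:24531402-24531775, 184 kb into the gene, the counts were 33.8, 40.6 and 37 in G1 and 9.9, 7 and 6.3 in M-phase, a 4.80-fold lower mean (-1.52 ± 0.28, adjusted p = 1.17e-05). At chr12:24198953-24199133, 516 kb in, they were 23.9, 18.8 and 16 against 8.7, 5.4 and 2.9 (-1.02 ± 0.29, adjusted p = 0.00353). At chr12:24652750-24652938, 62.6 kb in, they were 16.9, 18.8 and 14 against 10.3, 4.5 and 6.3 (-0.72 ± 0.28, adjusted p = 0.0470). In none of the 3 did the phases overlap, but the last call is marginal and was lost in 9 of 14 alternatives, with an adjusted p of up to 0.210 without M-phase replicate 2. Other intronic peaks of SOX5 did not pass. The flanking peak with the highest mean count, 24.4 kb in, had 29.8, 40.6 and 41 against 48.2, 28.4 and 39.9 (0.04 ± 0.26, limma adjusted p = 0.932). The peak next to the marginal fall, 61.5 kb in, had 20.9, 13.3 and 23 in G1 and 30.5, 29.3 and 29.4 in M-phase (0.50 ± 0.28, adjusted p = 0.189).

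SOX6, which with SOX5 assists SOX9 in cartilage and holds back oligodendrocyte maturation, had 23 peaks, the most of any member, of which 11 were tested. The peak at its annotated 5′ end, chr11:16759550-16761444, is shared with the start of C11orf58. It had 257.5, 212.5 and 375 in G1 and 181.3, 202.3 and 255.5 in M-phase, with overlap between the phases. The change of -0.37 ± 0.19 did not pass (limma adjusted p = 0.145), but it did at -0.54 without G1 replicate 2, at -0.42 with TMM scaling, at -0.71 with equal totals and at -0.94 with the loess fit. A second TSS peak, at internal starts 133 kb into the gene, had 170, 204.7 and 263 against 227.4, 249.7 and 184.3 (0.06 ± 0.19, adjusted p = 0.852), and this turned to -0.46 with the loess fit.

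3 peaks within SOX6 introns fell, among them the strongest. At chr11:16023048-16024746, 737 kb into the gene, the libraries had 174, 161.7 and 277 in G1 and 75.4, 91.9 and 73.6 in M-phase, 2.54-fold lower on average (-1.23 ± 0.21, adjusted p = 1.28e-06). At chr11:15997832-15998689, 763 kb in, they had 82.5, 89.1 and 139 against 48.2, 30.9 and 21.2, 3.10-fold lower (-1.45 ± 0.24, adjusted p = 1.44e-06). Both falls passed the test in all 15 alternatives. Neither had overlapping phases, but the rule for naming falls asked for separate phases. Another peak, chr11:16691037-16691612, had 48.7, 38.3 and 55 against 36.7, 23.5 and 20.7 (-0.68 ± 0.26, adjusted p = 0.0428), and its call was lost in 8 of 15 alternatives. In G1 the pair of strong peaks near the 3′ end had 120 and 121 scaled counts per kb, close to the 149 per kb of the 5′ TSS peak, and in M-phase 47.3 and 39.0 against 112. The intronic peak 126 kb in, at a start of C11orf58, had 80.5, 71.1 and 103 against 67.6, 76.6 and 59.7, with overlap, and did not pass (-0.28 ± 0.22, adjusted p = 0.385). Peaks of the last exon a few kb further on did not pass the test, with changes of -0.54 (adjusted p = 0.159) and 0.11 (adjusted p = 0.816). The remaining tested intronic peaks at no TSS, 107, 164 and 668 kb in, did not pass either. Their changes were -0.08, -0.42 and -0.07 (limma adjusted p = 0.887, 0.285 and 0.892).

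**Figure D3:**
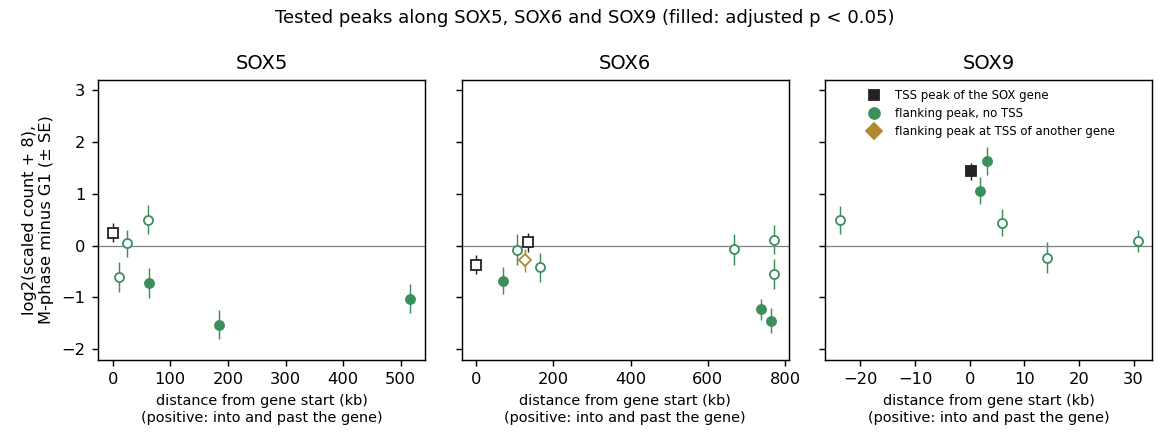
Change of log2(scaled count + 8), M-phase minus G1, with SE, against distance from the gene start in kb for the tested peaks of SOX5, SOX6 and SOX9. Filled points passed the test and lie below 0 between 62.6 and 516 kb into SOX5 and between 69.8 and 763 kb into SOX6, and above 0 within 3.24 kb of the SOX9 start.

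The sequences of the fallen SoxD peaks are shown because these are the regions that lost accessibility, and because the motifs of SOX and other factors can be read in them. They are on the plus strand of GRCh37, and capitals mark matches on either strand to ACAATG or ACAAAG (SOX), TGANTCA (AP-1), GGAATG (TEAD), TGTGGT (RUNX) and TGTTTAC (FOX). The SOX5 peaks at 516 and 62.6 kb are whole, and the others are the central 200 bases.
SOX5, chr12:24198953-24199133: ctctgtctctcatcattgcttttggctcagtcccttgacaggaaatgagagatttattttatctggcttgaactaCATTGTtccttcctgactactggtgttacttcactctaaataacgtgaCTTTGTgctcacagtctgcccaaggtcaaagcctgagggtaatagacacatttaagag
SOX5, chr12:24531488-24531687: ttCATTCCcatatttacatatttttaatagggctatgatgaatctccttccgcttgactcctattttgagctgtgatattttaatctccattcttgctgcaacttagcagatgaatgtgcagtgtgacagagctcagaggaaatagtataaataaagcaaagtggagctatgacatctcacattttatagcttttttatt
SOX5, chr12:24652750-24652938: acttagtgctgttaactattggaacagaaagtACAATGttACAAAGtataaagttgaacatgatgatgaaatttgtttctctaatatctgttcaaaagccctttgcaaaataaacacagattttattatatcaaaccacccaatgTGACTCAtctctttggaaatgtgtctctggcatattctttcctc
SOX6, chr11:16023797-16023996: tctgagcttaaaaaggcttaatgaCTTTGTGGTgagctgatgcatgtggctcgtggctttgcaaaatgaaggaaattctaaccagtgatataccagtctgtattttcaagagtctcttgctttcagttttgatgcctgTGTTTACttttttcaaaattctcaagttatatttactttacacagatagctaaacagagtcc
SOX6, chr11:16691224-16691423: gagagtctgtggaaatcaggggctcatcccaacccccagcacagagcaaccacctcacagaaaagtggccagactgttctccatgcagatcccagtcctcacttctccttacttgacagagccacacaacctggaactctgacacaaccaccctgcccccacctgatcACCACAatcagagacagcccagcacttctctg
The SOX letters occur in 2 places in each of these whole SOX5 peaks, and once in the SOX6 peak 737 kb in, where CTTTGT overlaps a RUNX match to TGTGGT and a FOX match follows. The SOX5 peak 184 kb in holds a TEAD match, the one 62.6 kb in also an AP-1 match and the last SOX6 peak a RUNX match. The centre of the SOX6 peak at chr11:15997832-15998689 matched none of the 5. In the central 200 bases, 3 of the 6 fallen peaks matched the SOX letters, 12 of all 59 flanking peaks at no TSS (20.3%) and 21.4% of all 113216 peaks without a TSS, so as a whole the flanking peaks were close to the background. For the other motifs the shares of peaks without a TSS were 12.9% (AP-1), 13.0% (TEAD), 17.0% (RUNX) and 3.07% (FOX). The TSS peaks of the SOX genes held no SOX match in 7 windows, and 10.5% of all TSS peaks held 1. The 6 fallen peaks had a median GC content of 41.2% and a median CpG ratio of 0.13, against 61.8% and 0.79 for the 7 TSS peaks. These values were close to those of all 23 intronic SoxD peaks at no TSS (43.6% and 0.13), and the medians of all peaks without a TSS were 49.4% and 0.18.

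**Figure D4:**
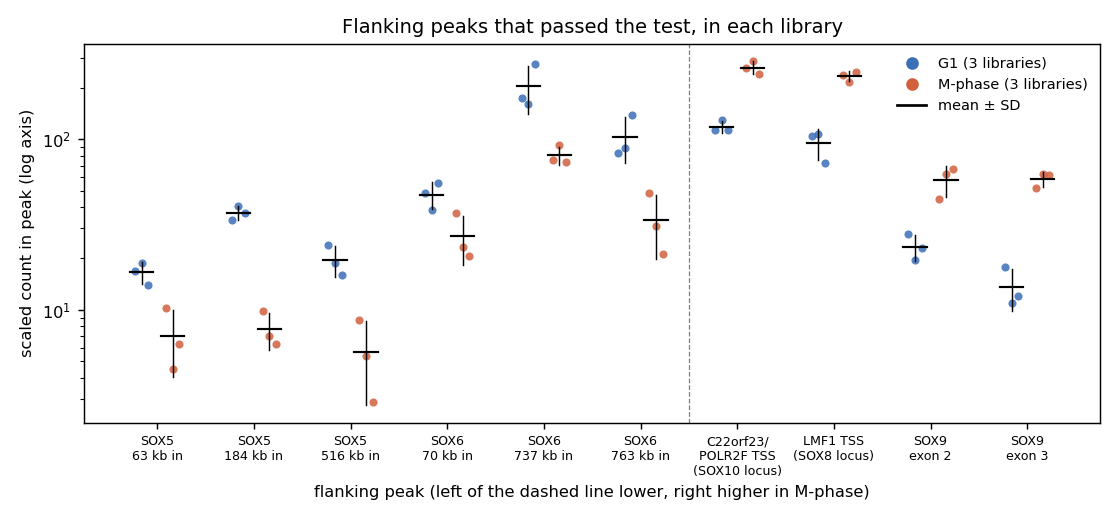
Scaled counts (log axis) of the 10 flanking peaks that passed the test, in 3 G1 (blue) and 3 M-phase libraries (orange), with mean ± SD. The 6 intronic peaks of SOX5 and SOX6 to the left of the dashed line have every M-phase point below the G1 points, and the 4 peaks to the right, at LMF1, C22orf23/POLR2F and SOX9 exons, have every M-phase point above.

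Summed over each locus, TSS and flanking peaks apart, 10 of 15 sums had no overlap between the phases, 8 higher and 2 lower in M-phase. Each of these reached p = 0.1 in a two-sided exact permutation test, which is the smallest p that 3 against 3 libraries allow (0.150 after adjustment over the 15 sums). On this scale every M-phase library also had a higher total over all peaks than any G1 library. The share of such sums over other loci was not computed, so the count cannot be read as particular to the SOX loci. The higher flanking sums of SOX8, SOX10 and SOX11 include a TSS peak of another gene. At SOX8 the mean sum was 205 in G1 and 358 in M-phase, of which LMF1 held 95.1 and 234. At SOX10 it was 146 and 290, of which C22orf23/POLR2F held 118 and 263. At SOX11 it was 277 and 346, of which the start of the unnamed transcript held 226 and 299. The 2 lower sums were the flanking peaks of SOX5 (8 peaks, G1 mean 153 ± 7.50 and M-phase mean 109 ± 23.5, SD, n = 3) and of SOX6 (21 peaks, 590 ± 163 and 352 ± 22.3). Both sums contain the called falls, so they are no separate support for them. The fallen SOX5 peaks held means of 37.1, 19.6 and 16.6 in G1 and 7.73, 5.67 and 7.03 in M-phase. The 2 strong SOX6 falls held 204 and 104 in G1 and 80.3 and 33.4 in M-phase. The ratio of TSS to flanking signal was higher in every M-phase library than in any G1 library at 5 of the 6 loci with both kinds of peak, SOX4, SOX5, SOX6, SOX9 and SOX11 (exact permutation p = 0.1 each, 0.120 adjusted over 6). At SOX9 the log2 ratio went from 0.51 ± 0.27 to 1.37 ± 0.04, and at SOX6 from -0.25 ± 0.04 to 0.30 ± 0.16. At SOX2 it did not separate the phases (exact permutation p = 0.3). At the other 5 loci the ratios contain peaks that were already called, so they add no separate support for those calls. Over all members, the mean level of TSS peaks minus that of flanking peaks on the log2 scale was 2.97, 2.87 and 3.16 in G1 and 3.30, 3.50 and 3.39 in M-phase, a difference of 0.40 (exact permutation p = 0.1), which turned to -0.17 with the loess fit. Over all tested peaks the median change was 0.39 at a TSS and -0.05 elsewhere, so a shift of this kind was not particular to the SOX loci.

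**Figure D5:**
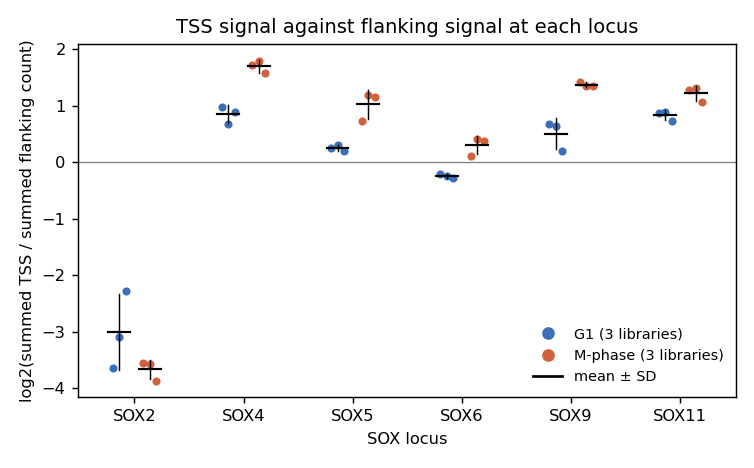
log2 of the summed TSS count over the summed flanking count in each library, for the 6 SOX loci with both kinds of peak, in 3 G1 (blue) and 3 M-phase libraries (orange), with mean ± SD. All M-phase points are above the G1 points at SOX4, SOX5, SOX6, SOX9 and SOX11, and they overlap at SOX2.

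Among 10 other SOX genes, 4 had a TSS peak and SOX1, SOX3, SOX14, SOX15, SOX17 and SOX30 had none. SOX12, also a SoxC gene, rose from 1106 ± 120 to 2639 ± 194 scaled counts (1.25 ± 0.13, limma adjusted p = 1.65e-12), though its change was -0.10 with the loess fit. SOX7, SOX13 and SOX18 did not pass the test. Of the TSS peaks of SOX4, SOX11 and SOX12, that of SOX4 alone kept its rise under every alternative run.

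Of 8 genes for partner factors of SOX proteins, 6 had a TSS peak, of which 2 rose, 2 fell and 2 did not pass, beside 43.2% rises and 5.94% falls over all tested TSS peaks. POU3F3 and SALL2 had no TSS peak. The POU factors that bind DNA beside SOX2 and SOX11 were the ones that fell. POU3F1 went from 210.8, 217.2 and 314 to 124, 165.6 and 162.6 (-0.67 ± 0.19, adjusted p = 0.00424), and POU3F2, a factor of stem-like glioblastoma cells, from 169, 177.3 and 249 to 111.6, 137.2 and 152.1 (-0.53 ± 0.20, adjusted p = 0.0321). The phases did not overlap in either, but the POU3F2 call was lost without G1 replicate 3 and without M-phase replicates 1 or 2, and that of POU3F1 without M-phase replicate 1. CHD7, a chromatin remodeller that associates with SOX2, rose from 289 ± 23.1 to 534 ± 44.0 (0.87 ± 0.17, adjusted p = 1.84e-05), but gave 0.09 and did not pass with the loess fit. CTNNB1, which encodes beta-catenin, rose by 0.52 ± 0.19 (adjusted p = 0.0317), a call kept in 9 of 15 alternatives. It was lost with the loess fit (-0.00069), equal totals (0.18) and DESeq2 (0.53), and without G1 replicate 1 (0.36), G1 replicate 2 (0.47) or M-phase replicate 3 (0.34). PAX6 and OLIG2 did not pass.

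Among known target genes of SOX factors, 5 had a TSS peak, of which 3 rose and none fell, near the background of 43.2% rises and 5.94% falls. MATN1, a cartilage matrix gene, rose from 387 ± 87.2 to 844 ± 45.8 (1.13 ± 0.16, adjusted p = 1.70e-08), TUBB3, the neuronal tubulin gene that SoxC factors activate, from 513 ± 34.8 to 1103 ± 107 (1.09 ± 0.15, adjusted p = 8.10e-09), and TEAD2, another SoxC target, from 91.3 ± 13.0 to 156 ± 30.5 (0.71 ± 0.21, adjusted p = 0.00504). None of these 3 rises passed with the loess fit. ERBB3 and MITF did not pass the test. NES, COL2A1, ACAN, COL11A2, COL9A1, DCT and S100B, which include the classical cartilage targets of SOX9, had no TSS peak in either phase.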

How the data were processed

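ATAC-seq peaks of synchronized T98G cells were analysed. According to the study's methods, cutadapt was used to trim adapters, Rbowtie (QuasR) to map reads to hg19 and samtools to discard mitochondrial reads. The authors then called broad macs2 peaks after merging replicates, so peaks were not called per library. Up to 3 mapping locations were allowed. Tool versions and any Tn5 shift are not given in the sources used here. The deposited signal values are reads per peak, scaled by the authors to the smallest library and rounded. The authors' table also has log2 changes between M-phase and G1 with their SD (log2 columns of their own comparison), which were not used.

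The scaled counts were tested with limma 3.58.1 (lmFit, eBayes with trend) on log2(scaled count + 8), after a filter (filterByExpr of edgeR 4.0.16, minimum count 10, total 15), with Benjamini-Hochberg adjustment over all 73121 peaks. Whole reads could be recovered from the scaling steps for at least 99.9% of values in each library. They sum to 4333935 to 5365024 reads in peaks in G1 and 12470564 to 14202790 in M-phase, and served for edgeR (9899 peaks higher, 9025 lower) and DESeq2 1.42.0 (9608 and 8383). No 2 libraries were identical. M-phase columns were matched to their group, because each column name fits both a HiSeq and a NextSeq sample of that replicate. The labels do not say whether a column holds the merged runs.

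TSSs, exons and gene ends came from GENCODE release 44 mapped to GRCh37, and sequences from GRCh37. For each SOX gene the 2 strongest TSS peaks and the strongest flanking peak were named. Up to 2 flanking falls and 2 rises were named too, if they passed the test with a mean of at least 20 and separate phases. The lack of overlap in these was thus a condition of naming. The 3 remaining calls were added after their values were seen. Genes of the lists were read at their strongest TSS peak, and some list genes and upstream sequences are not reported here. The members and lists were chosen with earlier results of these data known. The test was also run on simulated counts with known changes. These had the same spread setting for all peaks and no trend of change with peak strength. That run therefore cannot decide on calls that move with the loess fit. Overlapping genes and antisense starts cannot be told apart, since ATAC-seq has no strand.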

Additional observations from a re-analysis of the deposited data

How the results depend on the processing

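Results were recomputed with TMM scaling, equal totals in peaks, a loess fit along abundance, a pseudocount of 1, no filter, at least 10 scaled counts in every library, edgeR and DESeq2 on recovered reads, a replicate block and each library left out. For the listed genes that are not SOX members described here, these alternatives were chosen after seeing the data. The number of SOX TSS peaks that rose stayed at 2 or 3. Falls among them went from 0 to 1 with TMM scaling, 1 with equal totals and 3 with the loess fit (SOX11 and both SOX6 peaks), and leaving out 1 library gave 0 to 1, the latter without G1 replicate 2. Flanking rises went from 4 to 2 with an extension by 10 kb or without peaks at the TSS of another gene, and leaving out 1 library gave 4 to 6. Flanking falls went from 6 to 3 when at least 10 was required in every library, which tests fewer peaks and none of the fallen SOX5 peaks. They went to 9 with equal totals, to 4 with the loess fit, edgeR or DESeq2, and to 4 to 6 with 1 library left out. The TSS minus flanking difference of 0.40 turned to -0.17 with the loess fit and was 0.33 to 0.48 with 1 library left out. The replicate block changed none of these counts and gave 0.40 for the difference (exact sign-flip p = 0.25, the smallest 3 pairs allow). The deviations of same-numbered libraries from their phase means correlated at r = 0.01, -0.01 and 0.03. Noise of single peaks also enters these values, so they cannot tell whether such libraries shared a culture or day.

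Signs reversed at the following values. With the loess fit they were 0.11 for the SOX2 peak 11.2 kb upstream, -0.042 for the SOX4 peak 5.31 kb upstream, -0.24 for the SOX5 TSS, -0.46 for the internal SOX6 TSS, -0.13 for the SOX9 peak at 30.7 kb, -0.25 for the SOX11 TSS, -0.19 for the second SOX11 peak, -0.10 for SOX12 and -0.00069 for CTNNB1. With equal totals they were -0.091 for the SOX5 TSS, -0.25 for the SOX5 peak at 24.4 kb, -0.28 for the internal SOX6 TSS and -0.24 for the SOX9 peak at 30.7 kb. TMM scaling gave -0.0021 for the SOX5 peak at 24.4 kb. For the SOX2 peak edgeR gave 0.048 and DESeq2 0.043. With 1 library left out the SOX2 peak ranged from -0.24 to 0.35, the SOX5 peak at 24.4 kb from -0.10 to 0.21, the internal SOX6 TSS from -0.082 to 0.22 and the SOX9 peak at 30.7 kb from -0.040 to 0.27. The cause was not tested. The called peaks of SOX4, SOX9, LMF1 and C22orf23/POLR2F, the SOX5 peaks 184 and 516 kb in and the SOX6 peaks 737 and 763 kb in kept direction and call in every alternative that could be run on them. The G1 libraries hold fewer recovered reads than the M-phase libraries, and for peaks near 10 scaled counts this limits what can be detected.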

Other observations

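Over the 71 members, 15 had every M-phase library above every G1 library and 8 had every one below. The share over all peaks was not computed, so these counts have no background beside them. Some weak peaks were separate between the phases but were not tested, because they did not pass the filter on low counts. They are listed because their phases were separate. Upstream of SOX2, in an intron of SOX2-OT, at chr3:181422143-181422347, the scaled counts were 4, 3.1 and 7 in G1 and 8.2, 9.5 and 19.2 in M-phase. In SOX6 introns, 3 such peaks were higher in M-phase. The peak 256 kb into the gene had 2, 6.3 and 3 against 7.4, 7.8 and 17.8, the peak 294 kb in had 0, 0 and 3 against 5.4, 7.4 and 3.8, and the peak 662 kb in had 0, 0 and 1 against 2.5, 7 and 2.9. A further SOX6 peak, 75.1 kb in, was lower, with 8, 7 and 10 against 1.6, 0.4 and 3.8. A tested SOX5 peak 11.2 kb in also separated the phases, with 17.9, 10.9 and 23 against 9.5, 9.9 and 5.8, but did not pass the test (-0.60 ± 0.29, limma adjusted p = 0.112). Most of these counts come from a handful of reads, and more reads were sequenced in M-phase.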
